A study of Homo sapiens with 12 samples.

Results

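The voltage-gated ion channel genes and their relatives were taken as every protein-coding gene in GENCODE whose symbol begins with SCN and a digit and ends in A or B, or begins with CACNA, CACNB, CACNG or KCN. The rule gave 136 of the 60675 gene IDs in the table, comprising 14 sodium, 26 calcium and 96 potassium channel genes. A further 36 IDs with matching symbols were not protein-coding and were left out. RNA had been sequenced from SW1783, an established human astrocytoma cell line, with 3 libraries for each of 4 treatments lasting 24 h. These were PBS with 2% DMSO as vehicle, and a hot water extract of Aconitum carmichaeli Debeaux at a low (20 µg/mL), medium (100 µg/mL) or high dose (500 µg/mL). By the study's methods the extract stock was also made in PBS with 2% DMSO. It was added to wells holding medium, so 2% is the strength of the solvent and not that reached on the cells. The herb was named in the sample titles and treatment labels, whereas the treatment protocol given with the samples described another one, Poria cocos. All groups came from the same cell line, and nothing in the labels said that the 3 libraries of a group came from separate cultures, so that p-values measured only the spread between these libraries.

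Voltage-gated sodium channels open when the membrane depolarises and carry the fast inward current of an action potential, with a pore-forming alpha subunit and smaller beta subunits that adjust its gating and place it in the membrane. Aconitine, the main toxic alkaloid of this herb, binds the alpha subunit and keeps it from closing, which is the basis of its action on heart, nerve and muscle. In the study's chemical assay of the extract aconitine itself was listed as not detected, while related benzoyl alkaloids were found. Voltage-gated calcium channels turn depolarisation into calcium entry, and potassium channels return the membrane to rest and set the resting potential. Astrocytes do not fire action potentials and are known above all for potassium conductances of the inward rectifier and two-pore kinds.

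Total counts per library ranged from 18863863 to 24200576, and the channel genes together took 0.0403% of all counts. Between replicates of a group, the chi-square statistic over genes ranged from 2.06 to 3.77 per degree of freedom, so that no 2 libraries agreed within sampling noise. Mitochondrial ribosomal RNA took 0.913% to 0.960% of counts in the vehicle libraries, 3.01% to 3.33% at the low dose, 7.67% to 8.05% at the medium dose and 5.76% to 6.06% at the high dose. Of 10 astrocyte and glioma markers, 5 were detected, namely SLC1A3, VIM, CD44, NES and SOX9. The defining astrocyte markers GFAP, S100B and ALDH1L1 had mean normalised counts of 2.14, 1.74 and 0.476, and AQP4 was at 0 in every library. Normalised counts are counts divided by the size factor of the library in DESeq2, and a gene was called detected where its mean over the 12 libraries was at least 10.

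By that rule 50 of the 136 channel genes (36.8%) were detected, 68 had some counts with a mean under 10, and 18 (13.2%) were at 0 in all 12 libraries. Over all 19586 protein-coding genes the share detected was 65.6% and the share at 0 was 12.4%. The calcium class had the highest share detected, 13 of 26 (50%), followed by the sodium class with 6 of 14 (42.9%) and the potassium class with 31 of 96 (32.3%). All 4 calcium channel beta subunits were detected, whereas among the potassium genes detection ranged from 6 of 30 voltage-gated pore subunits (20%) to 9 of 17 auxiliary subunits (52.9%). Inward rectifiers, the family with the best known astrocyte channel, had 4 of 16 detected. That channel, KCNJ10, had between 1 and 8 counts in every library and was singled out after its values were seen.

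**Figure D1:**
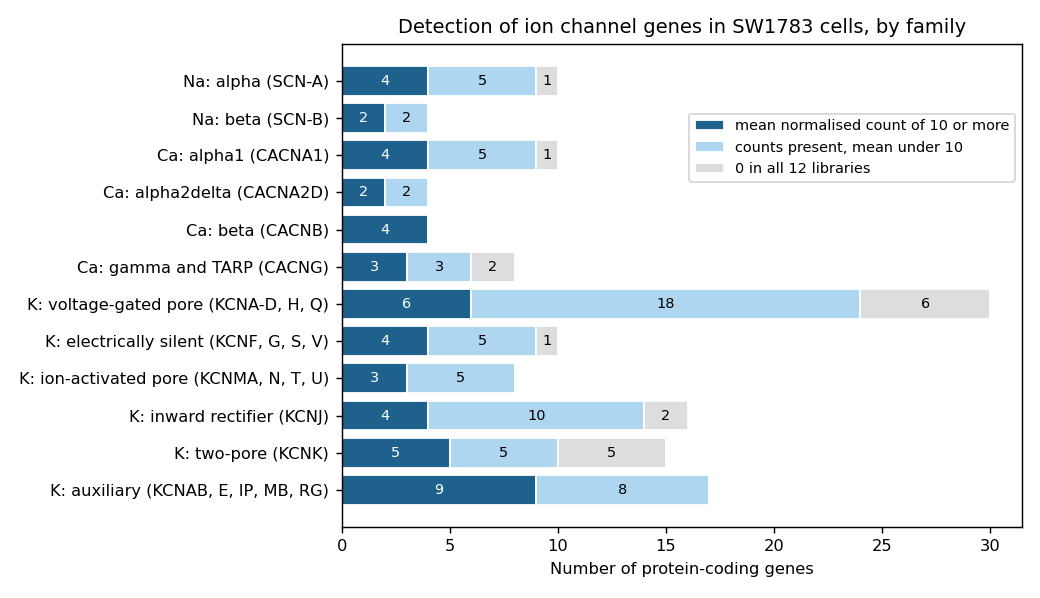
Number of channel genes (horizontal axis) in each family that were detected with a mean normalised count of 10 or more over the 12 libraries (dark), had counts with a mean under 10 (light) or were at 0 throughout (grey). The 4 calcium channel beta subunits were all detected, and the voltage-gated potassium pore subunits had 6 detected of 30.

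The genes nearest to the detection limit were CACNA1D, with a mean of 9.59, and KCNG3, with a mean of 10.7. The 18 genes at 0 were SCN4A, the skeletal muscle sodium channel, the calcium channel genes CACNA1S, CACNG2 and CACNG3, and 14 potassium channel genes. The latter comprised KCNA3, KCNA5, KCNA6, KCNA10, KCNC2 and KCNH8 among the voltage-gated pores, KCNV1 among the electrically silent subunits, KCNJ1 and KCNJ3 among the inward rectifiers, and KCNK9, KCNK10, KCNK16, KCNK17 and KCNK18 among the two-pore channels. A count of 0 in a library allows up to 3 counts, and this limit and the intervals below cover counting error or library spread only.

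Docking in the study singled out CACNA1B and CACNA1E as core proteins for the brain, and CACNA1C for the intestine. Its other core proteins fall outside the channel genes. CACNA1B, the N-type pore subunit, had at most 1 count in any library, and CACNA1E, the R-type pore subunit, had 1 count in 1 vehicle library and none elsewhere. Both therefore fell short of detection, though neither was at 0 in all 12 libraries. CACNA1C, the L-type pore subunit, was well detected at 621 ± 6.05 normalised counts with vehicle (SD, n = 3), 574 ± 10.2 at 20 µg/mL, 641 ± 31.4 at 100 µg/mL and 565 ± 43.8 at 500 µg/mL. At the high dose the log2 fold change of CACNA1C came to -0.14 (95% interval -0.29 to 0.01, adjusted p 0.126 in DESeq2), and it was called at no dose.

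Levels of different genes were compared as normalised counts per kilobase of annotated exon, averaged over the 12 libraries. The length takes in all annotated exons of a gene, not only the transcripts in use, so the order of genes depends on the annotation. Among the sodium channel genes described here the order was SCN3A (21.2 per kilobase), SCN4B (12.8), SCN9A (8.42), SCN8A (6.78) and SCN2A (0.741). The highest calcium class levels were in CACNG4 (46.3 per kilobase), CACNB3 (43.5), CACNB1 (32), CACNA1C (23.5) and CACNG7 (14.3). In the potassium class KCNN4, the intermediate-conductance calcium-activated channel, had 96.8 per kilobase, KCNG1 88.2, KCNMA1 71, KCNE4 59.6 and KCNQ5 41.6. By normalised count rather than per kilobase, KCNMA1, the pore of the large-conductance calcium-activated channel, alone held 43.2% to 47.2% of the counts of the potassium class in every library.

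**Figure D2:**
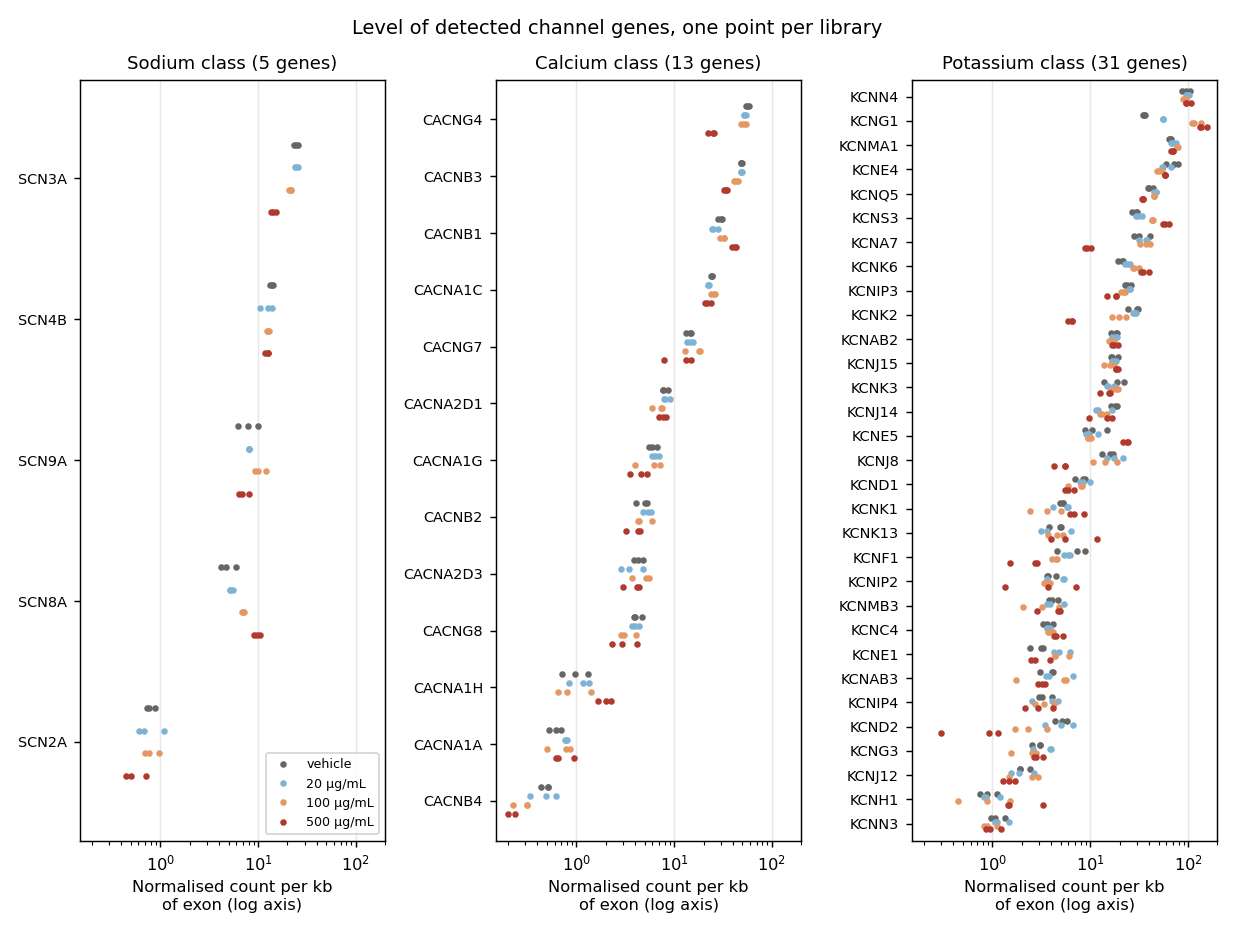
Level of detected channel genes as normalised count per kilobase of exon (log axis), with one point for each of the 12 libraries, coloured by group. The calcium and potassium panels hold all detected genes of the class, and the sodium panel only those described here, each ordered by mean level. As examples, the red points of the high dose sit apart from the grey vehicle points in KCNG1, KCNA7, KCNK2, KCND2 and CACNG4, and over them in KCNN4.

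RefSeq promoter sequences, taken here as the 250 bases before the annotated start in GRCh38.p14, matched 98 of the 136 channel genes and 11 of the 16 genes called at any dose. Those of SCN8A and KCNS3, which rose at the high dose, and of KCNA7 and KCNK2, which fell, are shown as examples of both directions among well detected genes whose calls held under every alternative tried. They read 5′ to 3′ on the strand of the gene, with matches to any of the searched motifs in capitals.

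SCN8A, chr12:51590983-51591232, plus strand: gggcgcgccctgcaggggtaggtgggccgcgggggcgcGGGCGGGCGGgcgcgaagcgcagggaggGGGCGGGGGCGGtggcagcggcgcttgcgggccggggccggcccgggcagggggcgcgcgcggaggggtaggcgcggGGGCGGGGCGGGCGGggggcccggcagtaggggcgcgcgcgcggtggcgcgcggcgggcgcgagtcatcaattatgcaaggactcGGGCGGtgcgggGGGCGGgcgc
KCNS3, chr2:17877597-17877846, plus strand: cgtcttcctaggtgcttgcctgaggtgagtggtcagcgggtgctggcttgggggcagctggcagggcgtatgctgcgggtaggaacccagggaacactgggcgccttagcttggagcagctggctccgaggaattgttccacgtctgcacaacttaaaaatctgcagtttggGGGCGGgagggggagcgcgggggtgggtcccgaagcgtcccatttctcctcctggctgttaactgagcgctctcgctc
KCNA7, chr19:49072700-49072949, minus strand: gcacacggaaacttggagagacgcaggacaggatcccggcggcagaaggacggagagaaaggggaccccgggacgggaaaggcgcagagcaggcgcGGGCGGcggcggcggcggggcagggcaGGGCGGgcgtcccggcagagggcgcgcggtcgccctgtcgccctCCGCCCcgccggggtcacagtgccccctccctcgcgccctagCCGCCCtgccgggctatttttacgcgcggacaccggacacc
KCNK2, chr1:215005292-215005541, plus strand: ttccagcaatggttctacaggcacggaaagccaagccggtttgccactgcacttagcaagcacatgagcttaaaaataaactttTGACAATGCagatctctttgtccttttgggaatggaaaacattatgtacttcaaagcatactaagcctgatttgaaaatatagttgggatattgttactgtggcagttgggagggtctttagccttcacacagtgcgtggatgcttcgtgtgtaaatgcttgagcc

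The motifs, searched on both strands, were GGGCGG of the GC box, the box named CCAAT for its letters, the E-box CACGTG, the cAMP response element TGACGTCA, the ATF4-type element TGATGNAAN, the AP-1 element TGANTCA and the NRF2-type element TGACNNNGC, of which the last can share bases with the AP-1 and cAMP elements. The SCN8A window was 85.6% G and C and held 9 GC box matches, some of which share bases, with its RefSeq start lying inside the GENCODE gene. The RefSeq start of KCNK2 lay before the start of its GENCODE gene. The KCNA7 window was 75.2% G and C with 4 GC boxes, the KCNS3 window 62.4% with 1, and the KCNK2 window 42.8% with none but 1 NRF2-type match. A GC box was present in 57.1% of the 98 channel promoters and in 42.5% of 34943 promoters of all genes, and the median content of G and C was 64.8% and 58%. Only the first listed promoter of each channel gene was taken. The set of all genes held every listed promoter and was not limited to protein-coding genes. These are unlike sets, so their shares are not a like comparison. The NRF2-type letters were in 6.12% of the channel promoters and 10.9% of all. These matches describe the letters only.

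The question at each dose was which channel genes changed against vehicle. A gene was called where the DESeq2 adjusted p was under 0.05 and the fold change over 1.5 in either direction, in a fit over the whole table. At the high dose 16 of the 76 channel genes with an adjusted p were called (21.1%), against 18.2% of all 19453 genes tested. Of the 16, 6 were higher (all genes, 8.66%) and 10 lower (all genes, 9.57%). At the medium dose 1 of 39 tested was called (2.56%), against 3.81% of all genes, and at the low dose 1 of 7 tested, against 0.118%. That gene was KCNG1 at both doses, and it was higher, as were 2.34% and 0.0967% of all genes tested. Without the fold threshold, 20 channel genes passed the adjusted p at the high dose (all genes, 46.5%) and 7 at the medium dose (29.5%). The low dose test gave no adjusted p to genes with a mean under 263, which held most of the channel genes.

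By class, the high dose calls were 2 of 7 tested sodium, 2 of 17 calcium and 12 of 52 potassium channel genes. Over the 50 detected genes the median log2 difference of high dose from vehicle was -0.17, beside 0.00 over all genes with a mean of at least 10, and 19 were above 0 and 31 below. The high dose libraries did not overlap with the vehicle libraries in 30 of the 50, against 70.0% of all genes at that level. Among the 4 groups as a whole, a likelihood ratio test in DESeq2 passed 21 of the 76 channel genes (27.6%), against 45.8% of all genes tested.

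**Figure D3:**
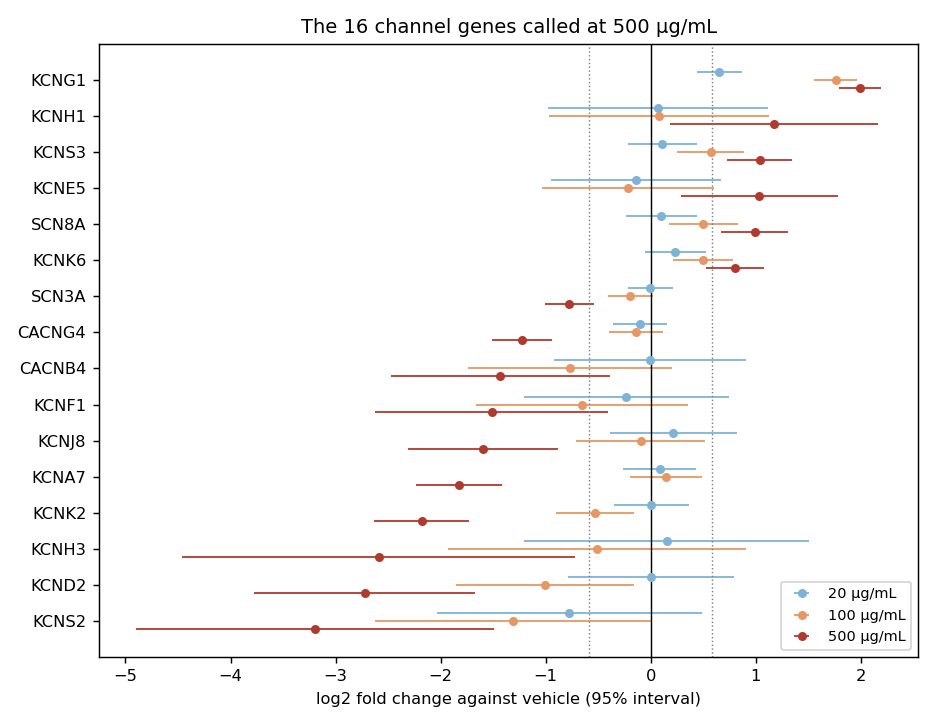
Log2 fold change against vehicle with its 95% interval for the 16 channel genes called at the high dose (500 µg/mL), with the low and medium doses beside it, and dotted lines at a fold change of 1.5. KCNG1 is at 0.65, 1.76 and 1.99 over the doses, whereas KCNA7 is at 0.08 and 0.14 before -1.83 at the high dose.

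Among sodium channel alpha subunits SCN3A fell and SCN8A rose at the high dose, and neither was called at the lower doses. SCN3A (ENSG00000153253, GRCh38 chromosome 2, 165087526 to 165204050), an alpha subunit best known from the developing brain, had 284, 300 and 267 normalised counts in the vehicle libraries, 281, 273 and 297 at 20 µg/mL, 252, 253 and 241 at 100 µg/mL and 164, 177 and 156 at 500 µg/mL. Every high dose library lay below every other library. SCN3A fell at the high dose, from 284 ± 16.1 to 166 ± 10.7 (SD, n = 3; log2 fold change -0.77, SE 0.117, adjusted p 2.75e-10 in DESeq2). At the medium dose its log2 fold change was -0.19 (DESeq2 adjusted p 0.198). Between the high and medium doses it was -0.58 (SE 0.119, adjusted p 6.05e-06 in DESeq2), just short of the fold threshold.

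SCN8A (ENSG00000196876, chromosome 12, 51590266 to 51812864), the alpha subunit concentrated at the axon initial segment and nodes of Ranvier, had 79.9, 88.5 and 114 normalised counts with vehicle, 98.1, 98.9 and 106 at 20 µg/mL, 138, 133 and 129 at 100 µg/mL and 200, 186 and 175 at 500 µg/mL. The medium dose libraries lay above all vehicle libraries, and the high dose libraries above all medium dose libraries. SCN8A rose at the high dose, from 94.3 ± 18 to 187 ± 12.7 (SD, n = 3; log2 fold change 0.99, SE 0.163, adjusted p 6.06e-09 in DESeq2). At the medium dose its log2 fold change of 0.50 (SE 0.167, adjusted p 0.0121 in DESeq2) passed the adjusted p but not the fold threshold. Without vehicle replicate 3, SCN8A was called at the medium dose.

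As a share of the summed level per kilobase of the 10 alpha subunit genes, SCN3A took 61% to 65.9% in the vehicle libraries, 61.4% to 64.2% at the low dose, 52% to 55.4% at the medium dose and 42.3% to 47.3% at the high dose. SCN8A took 10.4% to 16.6%, 13.5% to 13.9%, 16.6% to 18.5% and 30.2% to 31.3% in the same order. The ratio of SCN8A to SCN3A per kilobase was 0.204 ± 0.0492 with vehicle, 0.216 ± 0.0038 at 20 µg/mL, 0.326 ± 0.00688 at 100 µg/mL and 0.687 ± 0.0512 at 500 µg/mL (SD, n = 3). Its size depends on the exon lengths used, though its course over the groups does not. By normalised count SCN8A stood above SCN3A at the high dose (187 against 166). The summed alpha level was 38.6 ± 2.11 per kilobase with vehicle and 31.9 ± 2.04 at the high dose.

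SCN9A (ENSG00000169432, chromosome 2, 166195185 to 166376001), the alpha subunit known from pain-sensing neurons, had 140, 110 and 87.4 normalised counts with vehicle, 112, 112 and 113 at 20 µg/mL, 129, 169 and 140 at 100 µg/mL and 112, 95.5 and 88.9 at 500 µg/mL. The spread of the vehicle libraries took in all the high dose libraries. Its log2 fold change was -0.19 at the high dose (95% interval -0.56 to 0.18, adjusted p 0.447 in DESeq2) and 0.38 at the medium dose (DESeq2 adjusted p 0.107), and from the medium to the high dose it was -0.57 (SE 0.186, adjusted p 0.00697 in DESeq2), short of the fold threshold. Exons of genes on the opposite strand cover 11.4% of its exon bases.

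The other sodium channel genes were not called. SCN2A (ENSG00000136531), a brain alpha subunit next to SCN3A on chromosome 2 and on the opposite strand, had means of 19.2, 19.2, 19.6 and 13.4 over the 4 groups (log2 fold change at the high dose -0.53, SE 0.437, adjusted p 0.345 in DESeq2). SCN4B (ENSG00000177098), a beta subunit, had 78.5 ± 2.94 and 70.1 ± 2.61 (log2 fold change -0.16, adjusted p 0.571 in DESeq2). In all, 8 sodium channel genes were below detection. The sodium sensor SCN7A had at most 2 counts in a library, and SCN1A, SCN10A and SCN11A at most 1, so that these 4 were low but not at 0 throughout. The beta subunits SCN2B and SCN3B had at most 5 and 4 counts. Cardiac and skeletal muscle markers were also near 0, with none of 6 detected and summed normalised counts of at most 4.16 in any library.

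**Figure D4:**
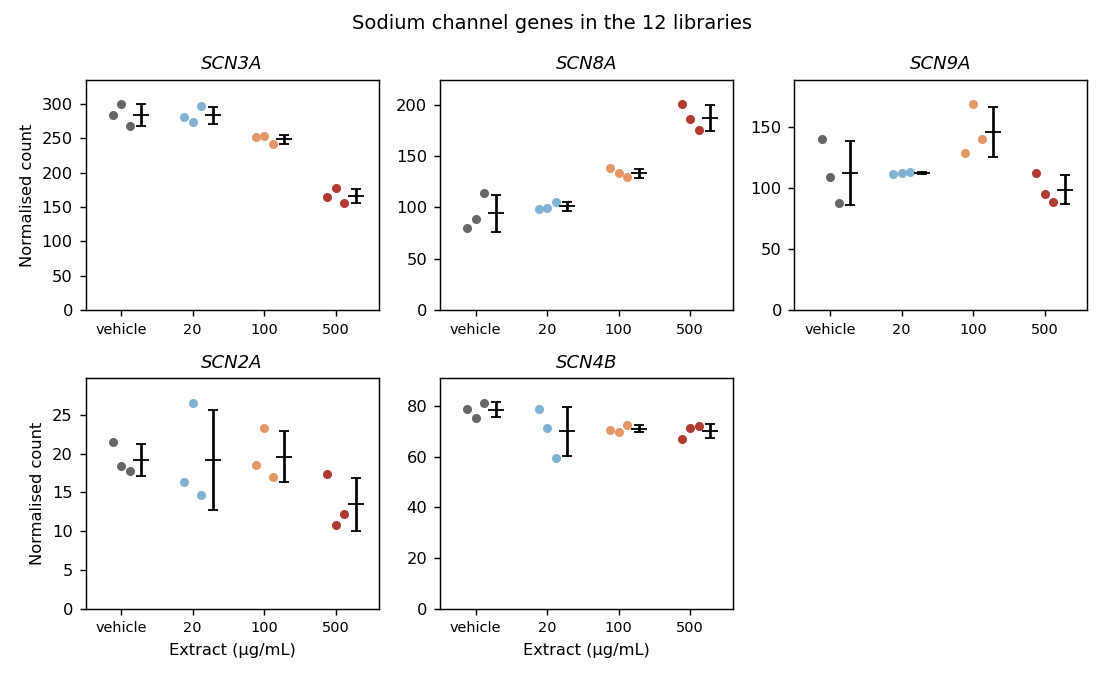
Normalised counts of 5 detected sodium channel genes in the 3 libraries of each group (points), with the mean and SD (black), against extract concentration in µg/mL, each panel starting at 0. The high dose points of SCN3A are the lowest of its panel and those of SCN8A the highest, while the SCN9A groups overlap between vehicle and high dose.

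Among calcium channel genes, the pore subunits were not called at any dose and the calls lay in accessory subunits. CACNG4 (ENSG00000075461, chromosome 17, 66964707 to 67033398), of the gamma family whose members also escort AMPA-type glutamate receptors, had 204, 195 and 211 normalised counts with vehicle, 193, 188 and 186 at 20 µg/mL, 173, 185 and 195 at 100 µg/mL and 91.5, 89.2 and 80.4 at 500 µg/mL. The high dose libraries stood below all 9 others. CACNG4 fell from 204 ± 7.96 to 87 ± 5.82 (SD, n = 3; log2 fold change -1.23, SE 0.146, adjusted p 4.13e-16 in DESeq2), and fell likewise against the medium dose (-1.09, adjusted p 1.9e-12 in DESeq2). CACNG7, of the same family, had 40.8 with vehicle and 34.6 at the high dose (DESeq2 adjusted p 0.541).

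The cytoplasmic beta subunits, which help pore subunits reach the membrane, differed from one another. CACNB3 went from 348 ± 3.54 to 241 ± 8.66 normalised counts (SD, n = 3; log2 fold change -0.53, SE 0.101, adjusted p 7.76e-07 in DESeq2), and CACNB1 from 210 ± 10.1 to 292 ± 12.9 (0.48, SE 0.117, adjusted p 0.000133 in DESeq2). Both passed the adjusted p without overlap of libraries, in opposite directions, and neither reached the fold threshold. CACNB4 was much lower, with 18.4, 18.4 and 15.6 normalised counts with vehicle and 3.47, 7.21 and 8.42 at the high dose. It was called (log2 fold change -1.43, SE 0.533, adjusted p 0.0177 in DESeq2), and the call was lost without vehicle replicate 1 (adjusted p 0.0556), vehicle replicate 2 (0.061) or high dose replicate 1 (0.0972).

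In the potassium class the electrically silent subunits, which form no channel alone and modify KCNB-type pores, had 4 calls among 8 tested (50%), against 18.2% of all genes tested, and 1 of these, KCNF1, was lost in 3 of the fits that left out a library. Sodium channel alpha subunits had the same share (2 of 4). The other potassium families had 4 of 12 (voltage-gated pores), 2 of 7 (two-pore), 1 of 6 (inward rectifiers), 1 of 14 (auxiliary) and 0 of 5 (calcium- or sodium-activated pores). KCNG1 (ENSG00000026559, chromosome 20, 51003656 to 51023107) had 190, 191 and 197 normalised counts with vehicle, 304, 304 and 299 at 20 µg/mL, 602, 623 and 730 at 100 µg/mL and 720, 733 and 842 at 500 µg/mL. The vehicle, low dose and medium dose libraries formed separate steps, and the medium and high doses overlapped. KCNG1 rose at all 3 doses, 1.57-fold at the low dose (log2 fold change 0.65, SE 0.11, adjusted p 7.19e-07 in DESeq2), 3.39-fold at the medium dose (1.76, SE 0.104, adjusted p 6.4e-62) and 3.98-fold at the high dose (1.99, SE 0.103, adjusted p 2.62e-81). From the medium to the high dose the log2 difference was 0.23 (DESeq2 adjusted p 0.0285). The low dose value had no adjusted p, with its mean below the filter, without vehicle replicate 3 (log2 fold change 0.67) or low dose replicate 2 (0.65).

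KCNS3 (ENSG00000170745, chromosome 2, 17877847 to 18361616) had 95.3, 84.1 and 92.6 normalised counts with vehicle, 97.1, 105 and 91 at 20 µg/mL, 133, 136 and 134 at 100 µg/mL and 174, 201 and 182 at 500 µg/mL. Its medium dose libraries lay above the vehicle and low dose libraries and below those of the high dose. KCNS3 rose at the high dose (log2 fold change 1.04, SE 0.157, adjusted p 2.32e-10 in DESeq2) and had 0.57 at the medium dose (adjusted p 0.00255), just short of the fold threshold. Without vehicle replicate 1 or 3, KCNS3 was called at the medium dose. The other 2 silent subunits called went down from low levels. KCNF1 had 20.5, 10.5 and 16.7 normalised counts with vehicle and 3.47, 6.31 and 6.55 at the high dose (log2 fold change -1.51, SE 0.567, adjusted p 0.0184 in DESeq2), and lost its call without vehicle replicate 1 (adjusted p 0.106), vehicle replicate 3 (0.0551) or high dose replicate 1 (0.085). KCNS2, below the detection limit on average, had 16, 11 and 18 counts with vehicle and 0, 1 and 4 at the high dose (log2 fold change -3.20, SE 0.869, adjusted p 0.000726 in DESeq2).

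**Figure D5:**
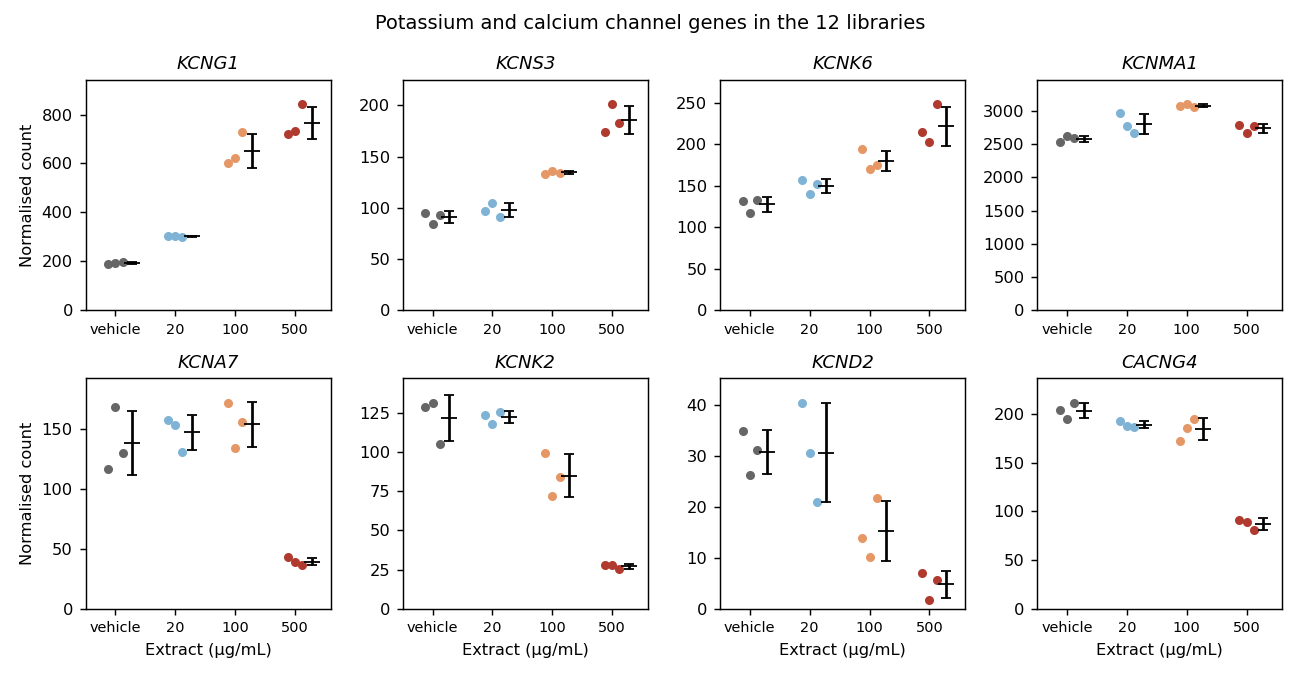
Normalised counts of 7 potassium channel genes and CACNG4 in the 3 libraries of each group (points), with mean and SD (black), against extract concentration in µg/mL, each panel starting at 0. KCNG1, KCNS3 and KCNK6 have their highest points at 500 µg/mL, KCNA7, KCNK2, KCND2 and CACNG4 their lowest, and KCNMA1 is highest at 100 µg/mL.

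The two-pore channels, which leak potassium at rest, had 1 call in each direction. KCNK6 (ENSG00000099337, chromosome 19, 38319845 to 38332076) had 131, 117 and 133 normalised counts with vehicle, 157, 140 and 152 at 20 µg/mL, 194, 171 and 174 at 100 µg/mL and 214, 203 and 248 at 500 µg/mL. No library of a dose overlapped with vehicle, and the groups stood in the order of dose. KCNK6 rose at the high dose (log2 fold change 0.80, SE 0.142, adjusted p 7.62e-08 in DESeq2), and at the medium dose passed the adjusted p alone (0.50, adjusted p 0.00354). KCNK2 (ENSG00000082482, chromosome 1, 215005775 to 215237090), a channel opened by stretch and polyunsaturated fatty acids, had 129, 131 and 105 with vehicle, 124, 118 and 126 at 20 µg/mL, 99.7, 71.8 and 83.9 at 100 µg/mL and 27.8, 27.9 and 25.3 at 500 µg/mL. It fell at the high dose (log2 fold change -2.18, SE 0.231, adjusted p 4.63e-20 in DESeq2), with -0.53 at the medium dose (SE 0.19, adjusted p 0.0224), short of the fold threshold. Without vehicle replicate 3 or medium dose replicate 1, KCNK2 was called at the medium dose.

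Of the voltage-gated pores KCNA7 (ENSG00000104848, chromosome 19, 49067397 to 49072699), a Shaker-type subunit, had 117, 168 and 130 normalised counts with vehicle, 158, 153 and 131 at 20 µg/mL, 172, 134 and 155 at 100 µg/mL and 42.8, 38.7 and 36.5 at 500 µg/mL. Low and medium doses overlapped with vehicle, and the high dose stood apart from all of them. KCNA7 fell at the high dose (log2 fold change -1.83, SE 0.209, adjusted p 2.57e-17 in DESeq2), whereas the medium dose gave 0.14 (95% interval -0.20 to 0.49, adjusted p 0.596). KCND2 (ENSG00000184408, chromosome 7, 120273175 to 120750337), a pore of the transient A-type current, had 34.8, 26.3 and 31.2 with vehicle, 40.4, 30.6 and 20.9 at 20 µg/mL, 13.9, 10.3 and 21.7 at 100 µg/mL and 6.95, 1.8 and 5.61 at 500 µg/mL. Its high dose libraries held 6, 2 and 6 counts, and it fell by 2.72 on the log2 scale (SE 0.536, adjusted p 1.64e-06 in DESeq2). Its medium dose fold change of 0.498 did not pass (DESeq2 adjusted p 0.0632), although the groups did not overlap. KCND2 was called at the medium dose by edgeR, and in DESeq2 with low counts filtered or without medium dose replicate 3.

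The ether-à-go-go family had 2 calls from low levels. KCNH1 had 14.3, 9.64 and 11.4 normalised counts with vehicle and 42.8, 18.9 and 18.7 at the high dose (log2 fold change 1.17, SE 0.505, adjusted p 0.044 in DESeq2). One library carried much of this, since without high dose replicate 1 the log2 fold change was 0.68 (adjusted p 0.362), and the call was also lost without any 1 of the vehicle or low dose libraries or medium dose replicate 3 (adjusted p 0.0518 to 0.148). Opposite-strand exons cover 28.1% of its exon bases. KCNH3 had 6, 10 and 9 counts with vehicle and 3, 1 and 0 at the high dose (log2 fold change -2.59, SE 0.954, adjusted p 0.0162 in DESeq2), and lost its call without high dose replicate 2 (adjusted p 0.0721) or replicate 3 (0.0981).

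The inward rectifier KCNJ8 (ENSG00000121361, chromosome 12, 21764955 to 21775600), a pore of ATP-sensitive potassium channels, had 43, 40.3 and 33.3 normalised counts with vehicle, 53.9, 37.7 and 43.9 at 20 µg/mL, 47.5, 27 and 35.8 at 100 µg/mL and 13.9, 10.8 and 14 at 500 µg/mL. The high dose libraries lay below the rest and the other doses overlapped with vehicle. KCNJ8 fell at the high dose (log2 fold change -1.60, SE 0.364, adjusted p 4.17e-05 in DESeq2), and opposite-strand exons cover 10.7% of its exon bases. ABCC9, the sulfonylurea receptor that completes this channel and was named after its values were seen, had a log2 fold change of -0.28 (SE 0.131, adjusted p 0.0656 in DESeq2). KCNJ12 and KCNJ18 are near-identical copies whose reads the counting may have split, so that the value of KCNJ12, which was not called, is uncertain. Among auxiliary subunits KCNE5 had 15.4, 13.1 and 21.9 with vehicle and 34.7, 36 and 31.8 at the high dose (log2 fold change 1.03, SE 0.38, adjusted p 0.0158 in DESeq2). Its call was lost without vehicle replicate 1 (adjusted p 0.0657), vehicle replicate 2 (0.106), high dose replicate 1 (0.0522) or high dose replicate 2 (0.0703).

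KCNMA1, KCNN4, KCNE4 and KCNQ5, all among the 5 potassium class genes with the highest level per kilobase, were called at no dose. KCNMA1 (ENSG00000156113) had 2525, 2623 and 2585 normalised counts with vehicle, 2967, 2780 and 2661 at 20 µg/mL, 3079, 3099 and 3062 at 100 µg/mL and 2782, 2665 and 2770 at 500 µg/mL. All dosed libraries lay above all vehicle libraries, and the medium dose stood highest. The log2 fold change at the medium dose was 0.26 (SE 0.0416, adjusted p 1.25e-08 in DESeq2), far under the fold threshold, and at the high dose 0.09 (adjusted p 0.0789). KCNN4 had 300 ± 28.1 with vehicle and 312 ± 22.8 at the high dose (SD, n = 3; log2 fold change 0.06, 95% interval -0.15 to 0.27). KCNE4 was lower at the medium dose (263 ± 38.6 against 192 ± 11.6, log2 fold change -0.45, adjusted p 0.00416 in DESeq2), and KCNQ5, an M-type pore, at the high dose (461 ± 29.2 against 388 ± 6.39, -0.25, adjusted p 0.00898), neither past the fold threshold. The 36 detected channel genes without a call at the high dose had log2 fold changes between -0.53 and 0.98, the last in CACNA1H, a T-type pore with means of 8.62 and 17.1 (SE 0.534, adjusted p 0.126 in DESeq2). In bulk libraries, fewer cells that express a gene and less RNA of it per cell cannot be told apart.

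Between the high and the medium dose, 7 of 61 channel genes with an adjusted p were called (11.5%), against 10.2% of all 16467 genes tested. Of these, KCNE5 and KCNK1 were higher at the high dose (all genes, 4.58%), and CACNG4, KCNJ8, KCNK2, KCNA7 and KCND2 lower (5.61%). Without the fold threshold 18 channel genes passed (all genes, 40.9%). The largest of these in size was KCNA7 (log2 difference -1.97, adjusted p 6.97e-20 in DESeq2), followed by KCND2 (-1.72, adjusted p 0.00654) and KCNK2 (-1.65, adjusted p 3.28e-11). The comparison shares the high dose libraries with that against vehicle and is no independent repeat of it. The call of KCND2 was lost without medium dose replicate 3 (adjusted p 0.0804) or high dose replicate 2 (0.0826), and that of KCNK1 without any library other than medium dose replicate 2 (adjusted p 0.0599 to 0.244).

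Genes whose products bind or regulate the channels, or share their ions, were read from a list of 69, of which 41 were detected. At the high dose 10 of 48 tested were called (20.8%), against 18.2% of all genes tested, and all 10 were lower, as were 9.57% of all genes. Of the sodium channel partners 17 of 19 were detected and 6 were called. FGF13, a fibroblast growth factor homologue that binds the tail of the sodium channel alpha subunit, had 793, 824 and 815 normalised counts with vehicle and 447, 414 and 388 at the high dose (log2 fold change -0.97, SE 0.0749, adjusted p 1.06e-36 in DESeq2). Its relatives FGF11 (-1.26, adjusted p 6.34e-09 in DESeq2) and FGF12 (-0.77, adjusted p 0.0216) also fell, as did the membrane anchors ANK2 (-0.90, adjusted p 0.000677) and ANK3 (-0.67, adjusted p 5.37e-05). The relative FGF14 was higher without reaching the fold threshold (0.36, adjusted p 0.0145 in DESeq2) and has 31.2% of its exon bases covered from the opposite strand. USP2, a ubiquitin peptidase with 25.2% of its exon bases covered in the same way, was the last of the 6 (-0.59, adjusted p 0.00963) and lost its call without vehicle replicate 3 (log2 fold change -0.50, adjusted p 0.0748) or high dose replicate 1 (-0.54), while FGF12 lost its call without any 1 vehicle library or high dose replicate 2 or 3 (adjusted p 0.0539 to 0.103).

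ATP1B1, the beta subunit of the sodium pump, had 2363, 2480 and 2392 normalised counts with vehicle and 790, 776 and 762 at the high dose (log2 fold change -1.64, SE 0.0506, adjusted p 2.45e-227 in DESeq2). STAC2, an adaptor of L-type calcium channels, fell from 1473 ± 68.9 to 691 ± 29.4 (SD, n = 3; log2 fold change -1.10, adjusted p 2.69e-66 in DESeq2), and CACHD1, a relative of the alpha2delta subunits, from 153 ± 6.78 to 78.9 ± 0.575 (-0.95, adjusted p 2.98e-08). CATSPER1, a sperm calcium channel pore with 16.6 and 7.23 normalised counts, had -1.20 (DESeq2 adjusted p 0.0411), a call lost without any 1 library other than high dose replicate 3 (adjusted p 0.0523 to 0.168) and also with only the 2 groups in the fit or with independent filtering off. At the medium dose 1 of 38 partners tested was called (2.63%), against 3.81% of all genes tested, of which 1.48% were lower. It was ANK3 (-0.59, adjusted p 0.000905 in DESeq2), and it fell short of the fold threshold without vehicle replicate 2 (-0.54) or medium dose replicate 2 (-0.58). The sodium leak channel NALCN (0.58, adjusted p 8.51e-07 in DESeq2) and REST, a repressor of neuronal genes including sodium channels (-0.37, adjusted p 1.04e-11), passed the adjusted p at the high dose but not the fold threshold, and were named after their values were seen.

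Some markers of other cell types also moved at the high dose, at which 18.2% of all genes tested were called. The marker calls were not tested against that share. Of 8 neuronal markers 6 were detected, and their summed normalised counts ranged from 3667 to 3844 in the vehicle libraries and from 2077 to 2118 at the high dose. The called members were TUBB3 (2212 to 707) and SNAP25 (704 to 167), both lower, and MAP2 (181 to 322), which was higher. SYT1 went up from 638 to 868 without a call, and SYP and GAD1 were not called. The fall of the sum thus lay in TUBB3 and SNAP25 and does not describe the list. RBFOX3, a marker of mature neurons, and STMN2 had means of 3.19 and 3.27. The 4 fibroblast markers, all detected, summed to 112025 to 116579 with vehicle and 28227 to 30509 at the high dose, and nearly all of this sum was COL1A1 (69316 to 16559) and COL1A2 (43737 to 11774). Of the others, LUM went from 693 to 461 (called) and DCN from 414 to 311 (not called). The epithelial list, with 2 of 4 detected, summed to 4861 to 5073 and 1797 to 1888, and its called members KRT18 and KRT8 went from 4600 to 1575 and from 391 to 258. Of 6 oligodendrocyte lineage markers 2 were detected, with sums of 701 to 761 and 472 to 538, and 3 were called, with MBP (143 to 258) and OLIG2 (1.56 to 24.5) higher and PDGFRA (587 to 223) lower. SOX10 was at 0 in every library. Of 5 microglial markers 3 were detected, with sums of 3149 to 3316 and 3945 to 4230, in which PTPRC (275 to 84.8) and CSF1R (68 to 30.9) were lower and CD68 (2864 to 3953) was not called. The astrocyte list summed to 144288 to 152085 and 152314 to 154036, and nearly all of this sum was VIM (88412 to 108048) and CD44 (56908 to 43678). Neither was called, and they moved in opposite directions, so the sum does not follow the rest of the list. Its members SLC1A3 and NES fell from 690 to 126 and from 214 to 64.7, and SOX9 went from 1434 to 1206 (not called). None of 4 endothelial markers was detected. The part of these shifts, and of the mitochondrial ribosomal RNA share, in the channel changes was not tested. With the mitochondrial genes left out, the same 16 channel genes were called at the high dose. Leaving them out moved the median log2 fold change of all genes by only -5.1e-05. That fit could therefore hardly change a call, and it says nothing on such a part.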

How the data were processed

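RNA was measured in 12 SW1783 libraries in 4 groups of 3, grouped by the sample titles. The authors prepared directional mRNA libraries, checked the paired reads with FastQC, trimmed them with Trim Galore, aligned them with STAR and deposited RSEM expected counts per gene on GRCh38. The submitters' processing notes list FastQC 0.11.9, Trim Galore 0.6.5, STAR 2.7.3a and RSEM 1.3.3, and the study's methods differ in the versions of some of these. RSEM's strand setting is not given in the sources used here. The deposited expected counts share reads among genes, and 8.75% of values were not whole, so they were rounded. Near-identical genes may split reads, and 0 columns were left over.

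GENCODE version 44 gave symbols, coordinates (1-based) and exon lengths for 93.2% of the 60675 IDs, which carried 99.9% of counts. DESeq2 1.42.0 in R 4.3.3 was fitted to the whole table with group as the only term, after the test the authors name, and adjusted p-values (Benjamini-Hochberg, two-sided Wald test) run over all genes with independent filtering at 0.05. That filtering left genes with means under 1.72, 18.3 and 263 without an adjusted p at the high, medium and low dose. The median standard error of a high dose log2 fold change was 0.353 at means of 10 to 100 and 0.0699 above 100. The scripts were tested on simulated data. Alternatives were edgeR 4.0.16, other scalings, filters and thresholds, a replicate block and leaving out each library. Genes were named by rule: the sodium channel genes, the calcium and potassium genes called at any dose, the 5 of each class highest per kilobase, the 3 calcium genes from the docking, and called partners with a mean of at least 10. Those named otherwise are marked, and some genes are not reported here. The channel genes and the lists of partners and markers were chosen with earlier results of these data known. Promoters came from RefSeq (GRCh38.p14). Opposite-strand overlap is stated for named channel genes and partners where it covers over 10% of exon bases. Among the named markers it covered 24.6% in VIM, 19.9% in GFAP and 17.1% in KRT18.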

Additional observations from a re-analysis of the deposited data

How the results depend on the processing

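At the high dose 16 channel genes were called, and across the alternatives 12 to 20 were, with no change of direction for any named value. The calls of SCN3A, SCN8A, CACNG4, KCNG1, KCNS3, KCNS2, KCNJ8, KCNK6, KCNK2, KCNA7 and KCND2 were kept in all 21 alternatives that tested them. The edgeR quasi-likelihood test shared 15 of the 16, gaining CACNA1H, with KCNH3 removed by its filter on low counts. Without a fold threshold the channel calls were 20 (high dose), 7 (medium dose) and 18 (high against medium), calcium calls at the high dose 4, and partner calls 26 at the high and 15 at the medium dose, because the rule is looser. With edgeR there were 5 channel calls at the medium dose, 11 between high and medium dose, 29 among the 4 groups (21 in the main result) and 0 partner calls at the medium dose. Filtering low counts gave 2 at the medium dose. With only the 2 groups compared in the fit, the low dose channel calls and the medium dose partner calls were 0, the first because KCNG1 had no adjusted p. Leaving out 1 library at a time gave 12 to 16 channel calls for the high dose, 1 to 4 for the medium, 0 to 1 for the low, 6 to 8 between high and medium dose and 16 to 22 among the 4 groups. By class at the high dose it gave 2 sodium, 1 to 2 calcium and 9 to 12 potassium calls, and for partners 8 to 10 at the high and 1 to 2 at the medium dose. The cause of the other shifts was not tested. Detection moved from 50 to 62 genes with a minimum mean of 5 and to 58 with 10 counts in 3 libraries. Other scalings moved the median of all genes by -0.00436 at the most.

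Replicate numbers were the same in every group, but same-numbered libraries did not deviate together (18 pairs, r from -0.041 to 0.104), so they were not treated as pairs. With the replicate number as a block, 15 channel genes were called for the high dose (KCNH1 not), 1 for the medium, 1 for the low, 6 between high and medium dose (KCNK1 not) and 17 among the 4 groups, and the partner calls of FGF12 and CATSPER1 at the high dose were lost. Depth limited genes with means under 100, and at the low dose most channel genes had no adjusted p.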
